A study of Drosophila melanogaster with 2 samples.

Results

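Spps had 856 binding peaks at promoters whose nearest start site is not shared with a divergent neighbour. They are peaks of the reproducible list (IDR, irreproducible discovery rate) whose summit lies no more than 500 bp from the transcription start site (TSS) of a protein-coding gene. Peaks were left out when the summit lay within 500 bp of both start sites of a divergent pair, that is, 2 TSSs on opposite strands that point away from each other and lie at most 1000 bp apart. The 856 peaks are 26.3% of 3260 (exact 95% interval 24.8 to 27.8), and divergent promoters held a further 532 peaks (16.3%). Another 627 peaks lay 500 to 2000 bp from a TSS and 1245 lay over 2000 bp away. The peaks come from chromatin immunoprecipitation with an anti-GFP antibody, done on 2 biological replicates of whole Drosophila melanogaster embryos aged 0 to 12 h, which form 1 group. The flies were a transgenic line in which Spps carries GFP fused to its C-terminal end. Both replicates carried the transgene, and the same 1 control was used for both peak callings. Whole embryos mix all cell types, so a promoter bound in few cells and one bound weakly in many cannot be told apart. Library depth cannot be read from peak lists, and the intervals here cover counting over peaks or genes only.

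Spps, a member of the Sp/KLF zinc finger proteins, helps to recruit Polycomb group proteins to Polycomb response elements. Fly core promoters fall broadly into developmental ones, often with a TATA box or a GAGA site near the start, and housekeeping ones, which carry Motif 1 or the DNA replication-related element (DRE). Ribosomal protein genes start instead at a TCT initiator, a pyrimidine-rich start sequence particular to the translation machinery.

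Several sequence sets carry the findings below. Each runs from 50 bp before to 50 bp after the summit, from the RefSeq release 6 genome (dm6 coordinates), read 5′ to 3′ on the strand of the gene. Windows that overlapped an annotated exon were not used. The first set holds the 3 strongest such members with Motif 1 (GGTCACACT, bound by the zinc finger protein M1BP). Capitals mark the motif on either strand.
cib, chrX:4106007-4106107, plus strand: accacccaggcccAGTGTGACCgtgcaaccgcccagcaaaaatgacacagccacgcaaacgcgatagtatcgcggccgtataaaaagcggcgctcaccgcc
CycB3, chr3R:24870822-24870922, minus strand: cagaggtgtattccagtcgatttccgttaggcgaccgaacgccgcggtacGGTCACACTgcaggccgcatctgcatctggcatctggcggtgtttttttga
CG14252, chr3R:26945400-26945500, plus strand: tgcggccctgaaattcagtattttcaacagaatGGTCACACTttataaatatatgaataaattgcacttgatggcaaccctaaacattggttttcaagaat

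The DRE (TATCGATA, bound by the factor DREF) is shown at kibra, whose window held it at 2 places, and at vib.
kibra, chr3R:14724270-14724370, minus strand: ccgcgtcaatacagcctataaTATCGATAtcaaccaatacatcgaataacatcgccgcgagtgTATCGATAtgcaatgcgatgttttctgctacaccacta
vib, chr3R:19226696-19226796, minus strand: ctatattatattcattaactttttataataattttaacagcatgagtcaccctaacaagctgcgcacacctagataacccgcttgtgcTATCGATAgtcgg

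The word CACTGTGC had the highest share of 10 octamers that was read on chromosome arms not used to choose them and also differed from unbound promoters there. It is shown at Fhos and Top1, and CACTGAGA, a word that was commoner at summits over 2000 bp from a TSS, at NK7.1 and Apoltp.
Fhos, chr3L:8766168-8766268, plus strand: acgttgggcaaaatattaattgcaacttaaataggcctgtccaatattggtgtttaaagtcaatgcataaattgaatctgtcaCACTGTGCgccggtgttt
Top1, chrX:15323439-15323539, plus strand: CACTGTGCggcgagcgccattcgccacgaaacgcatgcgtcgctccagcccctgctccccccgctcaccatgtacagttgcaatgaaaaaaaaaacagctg
NK7.1, chr3R:14373346-14373446, minus strand: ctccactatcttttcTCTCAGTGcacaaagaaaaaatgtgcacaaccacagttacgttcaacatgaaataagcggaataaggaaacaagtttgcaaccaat
Apoltp, chr2L:9633971-9634071, plus strand: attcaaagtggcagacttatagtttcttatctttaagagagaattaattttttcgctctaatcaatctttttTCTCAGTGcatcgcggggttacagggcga

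The last set holds 3 of the strongest members. None of the marked words occurred in these windows, so they are all in lower case.
CG14100, chr3L:19590550-19590650, minus strand: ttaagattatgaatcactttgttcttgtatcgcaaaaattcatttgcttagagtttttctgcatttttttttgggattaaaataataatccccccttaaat
ph-p, chrX:2137280-2137380, minus strand: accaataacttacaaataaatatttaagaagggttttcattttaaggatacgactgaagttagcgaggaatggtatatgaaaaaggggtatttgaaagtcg
CG18549, chr3R:12449143-12449243, plus strand: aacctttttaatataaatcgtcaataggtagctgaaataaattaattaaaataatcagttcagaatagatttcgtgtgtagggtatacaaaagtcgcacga

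The strongest summit of the whole list was a single promoter, that of px (plexus, named for a wing vein phenotype). It lay 218 bp upstream of an internal TSS, in the peak at chr2R:22514114-22514485 (dm6), with a peak signal of 1078 (replicate 1) and 702 (replicate 2). Signal is the authors' linear enrichment value, whose scale is not the same in the different lists. CG14100 followed with 805 in replicate 1 and 486 in replicate 2, its summit 76 bp upstream of the TSS. Both promoters stood at the head of both replicate lists. At Ugalt, which encodes a UDP-galactose transporter of the Golgi, the peak reached 738 in replicate 1 and 470 in replicate 2, 23 bp upstream of the TSS. ph-p (polyhomeotic proximal), of the Polycomb group, had 2 summits among the 12 strongest members, 475 bp upstream of an internal TSS and 440 bp downstream of its outermost one. Their signals in the reproducible list were 1183 and 1015. The other 7 of the 12 were Fkbp14 (1070), an endoplasmic reticulum peptidyl-prolyl isomerase, CG18549 (1066), the pseudouridine synthase gene RluA-1 (1020), MFS18 (1000), CG1888 (996), CG1635 (989) and Tina-1 (956). Of these 12 summits, 11 lay upstream of the nearest TSS and the second ph-p summit lay downstream.

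Single promoters were bound about as strongly as the other classes. Signal in the reproducible list went up to 1769 with a median of 158 (quartiles 120 and 258), against 154 at divergent promoters, 160 at 500 to 2000 bp and 151 beyond 2000 bp. On the log2 scale, single minus divergent promoters differed by 0.05 (95% interval -0.03 to 0.13) in the reproducible list and 0.02 (-0.06 to 0.11) in replicate 1. Replicate 2 alone gave 0.13 (0.04 to 0.22), so the replicates did not both show a difference. Against summits over 2000 bp away, single promoters were higher by 0.13 (0.07 to 0.20) in the reproducible list and 0.17 (0.11 to 0.24) in replicate 1, and by 0.07 (-0.01 to 0.14) in replicate 2. The distributions overlapped almost wholly in each case. Among single promoters 34.0% of summits were in the 1000 strongest of the list (30.8 to 37.3), and among all other summits 29.5% were (27.7 to 31.4).

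The replicates agreed at most single promoters, as elsewhere in the list. Of the 856, 635 (74.2%, 71.1 to 77.1) had a summit within 200 bp among the 3260 strongest peaks of both replicates, beside 75.3% of all reproducible peaks. The rest of the list gave 1820 of 2404 (75.7%), a difference of -1.52 points (-4.99 to 1.80). All 856 had a matching peak somewhere in the replicate 1 list and 854 did in the replicate 2 list. Across these 854 peaks, which are not independent replicates, signal in the 2 replicates had a Pearson r of 0.844 on the log2 scale and a Spearman rho of 0.776. The log2 ratio of the replicates had an SD of 0.47. Replicate summits lay a median 28.0 bp apart, and 611 of 854 lay within 50 bp. Agreement went with strength. The reproducible list held the 3260 strongest peaks of the list pooled over both replicates. Signal in it and rank in each replicate are therefore not independent. All of the 214 strongest members were among the strongest peaks of both replicates, and 24.8% of the 214 weakest were. At CG15561 the peak signal was 91.4 (rank 1806 of 30000) in replicate 1 and 14.4 (rank 21414) in replicate 2. CG17544 went the other way, with 21.2 (rank 19464) in replicate 1 and 60.6 (rank 1656) in replicate 2. MICU3, CG31999 and CG2493 had the next largest gaps, and all 5 rest in effect on 1 library.

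**Figure D1:**
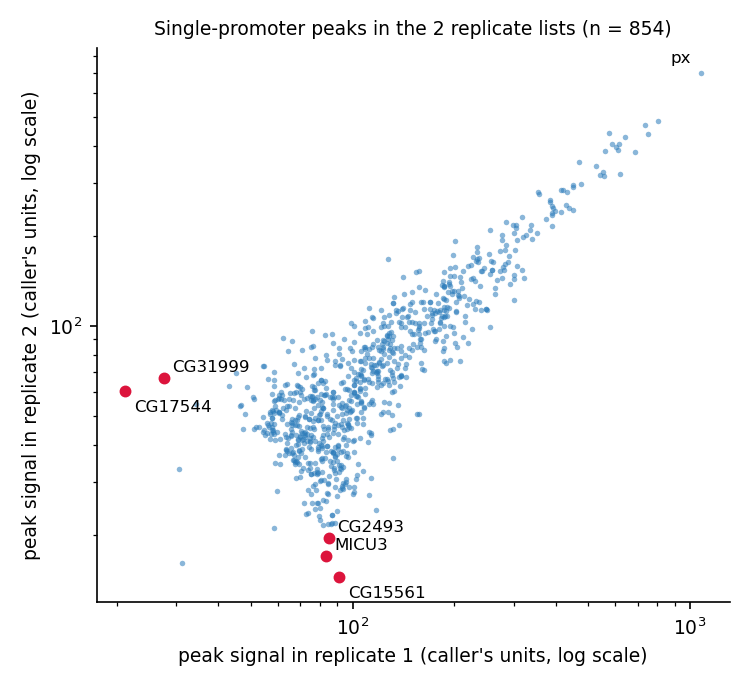
Peak signal of 854 single-promoter peaks in replicate 1 (x, log scale) and replicate 2 (y, log scale), in the authors' units, one point per peak. The points narrow towards px at the top (1078 in replicate 1, 702 in replicate 2), and the 5 peaks with the largest gap in rank (red) lie at the low end.

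Spps summits lay mostly upstream of the start site. Of the 856, 700 lay upstream of the nearest TSS, 155 downstream and 1, at RpS10b, on it, so 81.9% of those off the TSS were upstream (79.1 to 84.4). The median position was -154.5 bp (quartiles -262 and -45.0), and 476 summits (55.6%, 52.2 to 59.0) lay between -300 and -50 bp. Upstream summits also had the higher signal. Their median was 171 in the reproducible list, against 132 downstream, a log2 difference of 0.35 (0.24 to 0.47). Replicate 1 gave medians of 106 upstream and 84.8 downstream (0.35, 0.23 to 0.47), and replicate 2 gave 67.4 and 50.7 (0.38, 0.24 to 0.51). Among the 1000 strongest peaks of the list were 37.9% of upstream members and 16.8% of downstream members, a difference of 21.1 points (13.5 to 27.3).

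Position changed with strength. The 214 strongest members (signal 258 to 1769) had a median position of -190 bp, with 197 of 214 upstream (92.1%), and the 214 weakest (signal up to 120) lay closer to the TSS, with 157 of 214 upstream (73.4%). The upstream share was higher by 18.7 points in the strongest (11.7 to 25.6). Between -300 and -100 bp lay 134 of the strongest summits and 81 of the weakest, and in the 100 bp just downstream of the TSS lay 5 of the strongest and 37 of the weakest. By distance, median signal was 127 for the 215 summits less than 100 bp from a TSS, 159 for the 273 at 100 to 200 bp, 207 for the 177 at 200 to 300 bp, 182 for the 105 at 300 to 400 bp and 158 for the 86 farther out. Summits within 100 bp had a log2 signal of -0.40 relative to those beyond in the reproducible list (-0.51 to -0.29). The difference was -0.36 (-0.47 to -0.24) in replicate 1 and -0.50 (-0.62 to -0.37) in replicate 2.

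**Figure D2:**
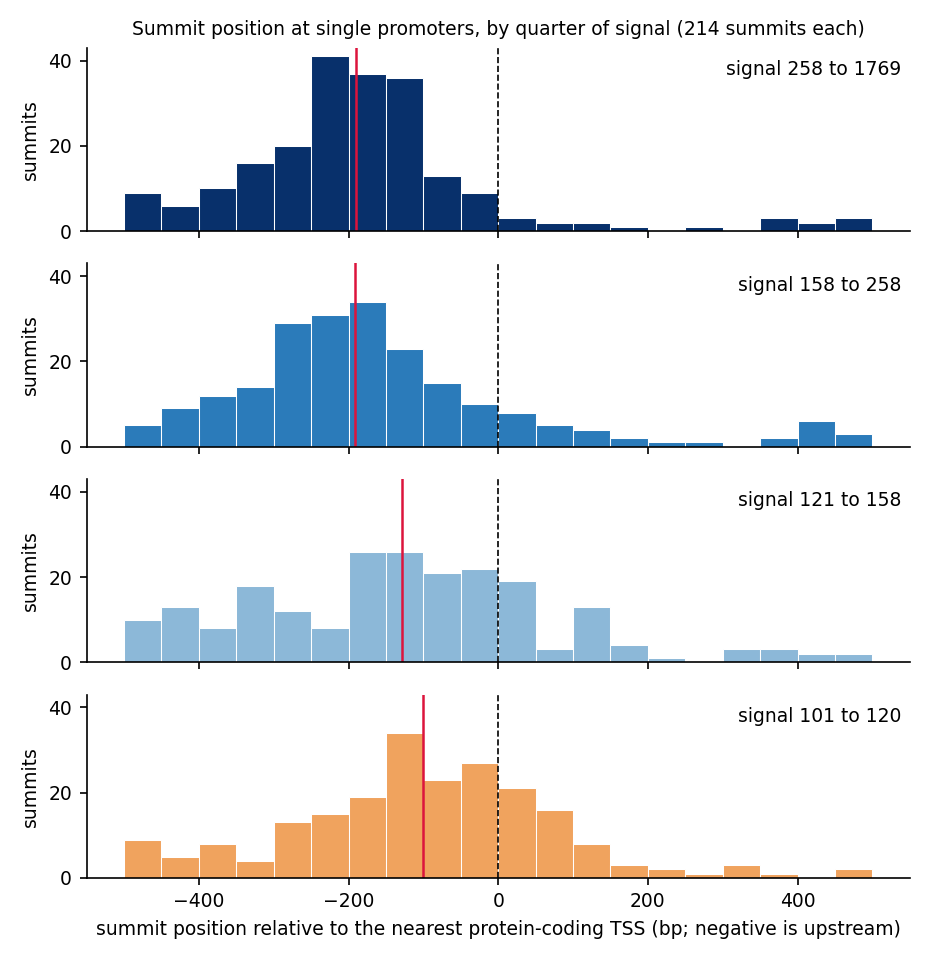
Number of summits (y) by position relative to the nearest protein-coding TSS (x, bp, 50 bp bins) for single-promoter peaks split into 4 equal groups by signal, strongest at the top, 214 summits each. The red line is the median, at -190 bp in the strongest group, -191 and -129 bp in the next groups and nearer the TSS in the weakest, and the dashed line is the TSS.

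At the outer edge of the window, the members farthest out were CG12402 (499 bp, signal 139), Cyp310a1 (498 bp, 287) and aru (496 bp, 235), and the peaks just outside were CG15247 (503 bp, 124), Cbs (503 bp, near the lowest signal of the list) and kug (505 bp, 103). Some members lay between divergent TSSs of which only 1 fell within 500 bp, the closest being mask (TSSs 527 bp apart, signal 199), RpL23 (556 bp, 173) and CG15771 (616 bp, 293). The widest pairs that were counted as divergent, at CG12065, Sin3A and app, were 713, 687 and 687 bp apart.

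The genes of bound single promoters had several start sites more often than those of unbound ones, and a greater median length. Of the 807 genes nearest to a member, 467 (57.9%, 54.4 to 61.3) had more than 1 annotated TSS, against 2492 of 9277 genes of unbound single promoters (26.9%, 26.0 to 27.8). Median gene length was 6229 bp for the bound genes and 2132 bp for the unbound ones. A gene with more start sites had more chances to hold a summit, and the part of that in these values was not tested. The nearest TSS was the gene's outermost one at 546 members (63.8%) and an internal one at 310 (36.2%). By annotation 408 summits lay between protein-coding genes (47.7%), 295 in introns (34.5%), 134 in 5′ UTRs (15.7%), 16 in 3′ UTRs and 3 in coding exons. The start sites nearest to members, rather than the summits, were also compared with 12895 unbound start sites. These nearest start sites were internal to their own gene more often (36.2% against 31.2%, difference 5.01 points, 1.76 to 8.38). They were inside another gene less often (7.24% against 14.1%, -6.87 points, -8.54 to -4.85). The shares with a gene upstream on the same strand (36.8% against 36.4%) or on the opposite strand (19.6% against 18.2%) had difference intervals that spanned 0 (-2.88 to 3.78 and -1.21 to 4.27 points). Only 34 members (3.97%) had a divergent partner among noncoding start sites.

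A few genes were bound at several of their start sites. The tyrosine phosphatase gene Ptpmeg2 had 5 summits, with signals of 303, 401, 166, 352 and 117, of which 4 lay upstream of a TSS. The reticulon gene Rtnl1 had 3, at 292, 239 and 241 bp upstream of 3 start sites, with signals of 679, 169 and 246. Moe, which encodes the fly ezrin-radixin-moesin protein, also had 3 (259, 110 and 156). In all, 44 genes had more than 1 member summit. Some of these are close neighbours: 34 members had another reproducible summit 199 to 235 bp away, and 11 shared a matched replicate peak with another summit, so these are not separate observations.

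Cytoplasmic ribosomal protein genes had the highest share with a single-promoter summit among 21 gene lists over the whole reproducible list. Of 86, 34 had a single-promoter summit (39.5%, exact 95% interval 29.2 to 50.7), against 830 of 13945 protein-coding genes on the 6 arms (5.95%). Another 23 (26.7%) had a divergent-promoter summit, against 7.79% of all genes. At RpL23A the peak reached 183 in replicate 1 and 106 in replicate 2, with its summit 48 bp upstream of the TSS. RpL30 had 148 and 118, at 20 bp downstream, and RpL24 had 173 and 97.9, at 16 bp upstream. Ribosomal protein summits lay mostly at the start site. Of 35 peaks nearest to a ribosomal protein gene, 30 lay within 100 bp of the TSS (85.7%), against 187 of 821 other members (22.8%), a difference of 62.9 points (47.6 to 71.4). Their median position was 0 bp and 29 lay within 50 bp. Exceptions included RpS23, with a summit at -463 bp beside 1 at -8 bp, RpLP2 (-171 bp), RpL11 (-128 bp) and RpL35 (114 bp). Signal was modest, with a median of 148 against 160 for other members. The log2 difference was -0.29 (-0.43 to -0.15) in the reproducible list, -0.21 (-0.35 to -0.07) in replicate 1 and -0.40 (-0.61 to -0.18) in replicate 2. In the 1000 strongest peaks 5 of the 35 remained, and the share of bound ribosomal protein genes was then 5.81%, against 2.09% of all genes. They were no longer the highest list there, since signalling pathway genes had 7.14% and the other patterning regulators 6.15%. No untagged sample or signal track was analysed here, so weak peaks on start sites, these and the ones with Motif 1 among them, were not compared with a background at active promoters.

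Most of the bound ribosomal protein start sites carried the TCT initiator (CTTT with a C or T on either side, on the gene strand within 10 bp of the TSS). It was found at 23 of 35 bound ribosomal protein start sites (65.7%, 47.8 to 80.9), and at 27 of the 805 other member start sites (3.35%, 2.22 to 4.84). All member start sites together gave 5.95%, against 2.02% of unbound ones, a difference of 3.93 points (2.50 to 5.75). Unbound ribosomal protein start sites were not counted on their own. A link between the TCT initiator and binding within these genes was therefore not tested.

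Translation factors were bound at 10 of 51 genes (19.6%, 9.82 to 33.1), and 8 of these summits lay within 100 bp of the TSS. The ribosome anti-association factor eIF6 reached 207 in replicate 1 and 124 in replicate 2, and the elongation factor subunit eEF1gamma had 176 and 88.8. eIF2A was lower, at 83.8 and 39.5. For other housekeeping complexes, the shares at divergent promoters (12.5% or more of each list, against 7.79% of all genes) were above those at single promoters (0 to 7.14%, against 5.95% of all genes). The single-promoter intervals of these lists include 5.95%, other than that of the respiratory chain. Both shares are over all genes of a list. How many of these genes have a divergent promoter was not counted, so binding and gene layout cannot be told apart here. Mitochondrial ribosomal proteins had 1 of 73 (mRpL41, 1.37%), against 21.9% at divergent promoters, and mRpL41 was strong, at 619 in replicate 1 and 323 in replicate 2. Proteasome subunits had 1 of 48 (the lid deubiquitinase Rpn11), aminoacyl-tRNA synthetases 1 of 33 (AlaRS), Mediator and general transcription factors 1 of 49 (TfIIEbeta) and splicing factors 1 of 28 (the SR protein B52). Ribosome biogenesis had 2 of 28 (7.14%, NHP2 and Bka). Several of these shares moved when a library was left out. Without replicate 1, mitochondrial ribosomal proteins had 2.74%, ribosome biogenesis 3.57% and splicing 0%. Without replicate 2, Mediator and general transcription factors had 6.12%, ribosome biogenesis 14.3% and the respiratory chain 2.50%. No respiratory chain gene was bound among 80, so up to 3.75% is allowed, and no V-ATPase subunit among 33 (up to 9.09%), while 12.5% and 15.2% had a divergent-promoter summit.

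The lists of developmental regulators had few or no divergent-promoter summits, and here too the genes with a divergent promoter were not counted. Signalling pathway genes had 10 of 56 at single promoters (17.9%, 8.91 to 30.4) and 1.79% at divergent ones. E(spl)m7-HLH, a Notch target of the Enhancer of split complex, reached 384 in replicate 1 and 263 in replicate 2, with its summit 371 bp upstream. E(spl)m3-HLH had 234 and 167, at 440 bp upstream, and the EGF ligand gene spi had 211 and 134, at 212 bp upstream. Patterning regulators outside the homeobox list had 8 of 65 (12.3%, 5.47 to 22.8), all upstream, and 0% at divergent promoters. This list also holds the neuronal RNA-binding protein gene elav, its strongest (390 in replicate 1 and 238 in replicate 2, at 265 bp upstream). Next came the zinc finger gene cbt (277 and 194, at 344 bp upstream) and the T-box gene org-1 (265 and 134, at 368 bp upstream). By annotation, the elav and cbt start sites lay inside another gene. Homeobox genes were near the level of all genes, at 3 of 55 (5.45%), with the heart and visceral mesoderm regulator tin at 290 in replicate 1 and 171 in replicate 2, and Dll and bcd low. Muscle structural genes had 3 of 21 (sls, Tm1 and Act87E), each 255 bp or more upstream. The intervals for these small lists are wide, and several include the 5.95% of all genes.

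Cell cycle genes had 4 of 35 (11.4%, 3.20 to 26.7), namely CycE (218 in replicate 1 and 117 in replicate 2), the E2F partner Dp (140 and 107), E2f1 and CycB3. Polycomb group genes had 2 of 26 (7.69%, 0.946 to 25.1, ph-p and jing), against 5.95% of all genes, and the share was 11.5% without replicate 1 and 19.2% without replicate 2. Trithorax group genes had 0 of 25, which allows up to 12.0%, but 12.0% without replicate 1 and 1 of 25 without replicate 2. Insulator and architectural proteins had 2 of 17 (11.8%, lola and pita), and 5.88% without replicate 1. Chemoreceptors (0 of 179, up to 1.68%), cuticle proteins (0 of 96, up to 3.12%) and Jonah proteases (0 of 16, up to 18.8%) had no single-promoter summit and 0% at divergent promoters.

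**Figure D3:**
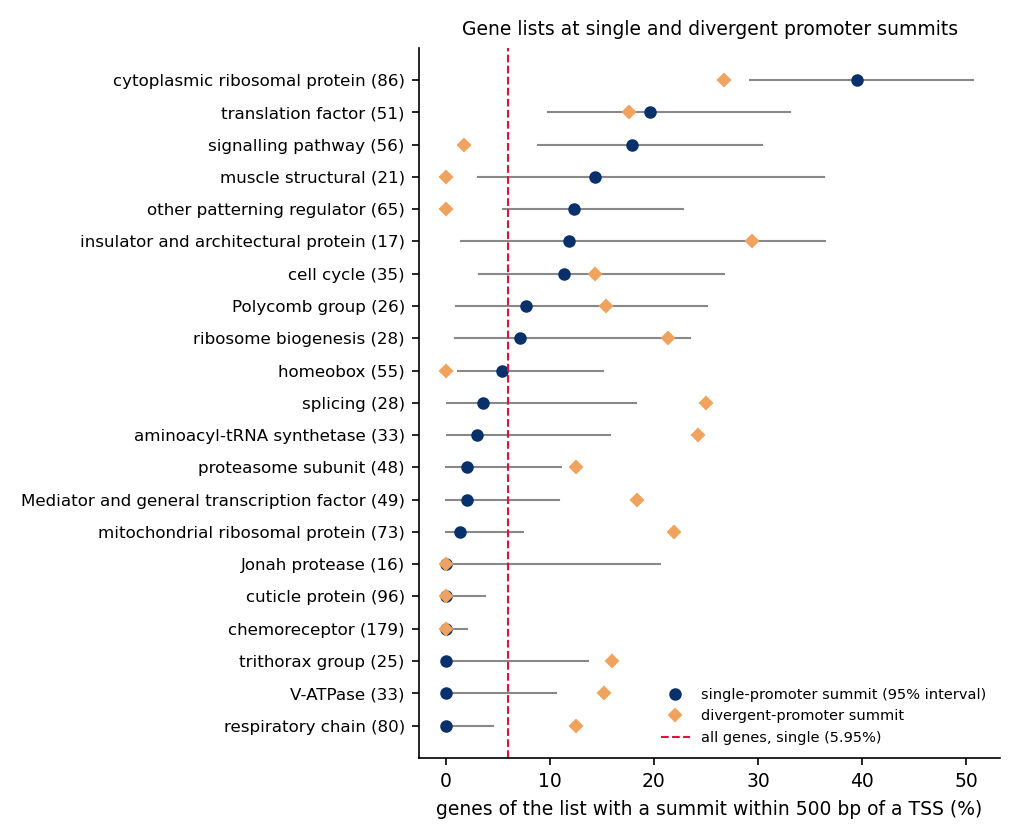
Percent of each gene list (y, number of genes in brackets) with a single-promoter summit (dark circles, grey exact 95% intervals) and with a divergent-promoter summit (orange diamonds). The dashed line is the 5.95% of all protein-coding genes with a single-promoter summit. Cytoplasmic ribosomal proteins reached 39.5%, and most other housekeeping lists had higher diamonds than circles. Both shares are over all genes of a list, whether or not they have a divergent promoter.

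Housekeeping elements were found at some single promoters, close to the start site. Motifs were searched as exact strings on both strands within 100 bp of each summit, and compared with 12692 windows placed at the members' median position at unbound single promoters. Motif 1, shown above at cib, CycB3 and CG14252, was in 3.15% of member windows and 0.552% of unbound ones, a 5.72-fold share (3.69 to 8.87). With unbound windows placed at the members' own positions, it was 3.33-fold (2.21 to 5.03). Divergent promoters had 3.95%, and summits over 2000 bp away 0.0803%. Of the 27 members with Motif 1, 24 lay within 100 bp of the TSS, which is 11.1% of summits there and 0.469% of those farther out, a difference of 10.6 points (6.96 to 15.5). The DRE was in 3.62% of member windows, 10.2% of divergent ones (difference -6.53 points, -9.58 to -3.81), 0.161% beyond 2000 bp and 2.15% of unbound ones (1.68-fold, 1.17 to 2.43). It too was commoner within 100 bp of the TSS (9.22%) than beyond (1.72%, difference 7.50 points, 4.05 to 12.1). For both elements, these near and far shares were not compared with unbound windows at the same distances. They therefore do not show whether the difference is particular to bound promoters. CGATA, the core recognised by the insulator protein BEAF-32 and part of the DRE string, was in 29.7% of member windows, 43.8% of divergent ones and 27.5% of unbound ones.

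Members with these elements had a lower median signal than the others. The 27 with Motif 1 had a median signal of 118, against 162 for the others, a log2 difference of -0.59 (-0.71 to -0.46). None was among the 214 strongest members, so up to 1.40% is allowed there, and 14 were among the 214 weakest (6.54%). At cib the signal was 73.2 in replicate 1 and 46.0 in replicate 2, at CycB3 61.2 and 60.0, and at CG14252 87.0 and 23.3. Members with the DRE had a median of 137, against 162 (-0.31, -0.52 to -0.09), with kibra, a Hippo pathway gene, at 123 in replicate 1 and 51.5 in replicate 2. The DRE was in 5 of the 214 strongest members (2.34%) and 11 of the 214 weakest (5.14%). That difference of -2.80 points had an interval that spanned 0 (-6.86 to 0.956). Strength and distance from the TSS moved together here and their parts cannot be told apart. Among members within 100 bp of the TSS, Motif 1 was in 4.62% of those above the median signal of all members and 13.8% of those below it, a difference of -9.20 points whose interval just spanned 0 (-16.3 to 0.113).

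**Figure D4:**
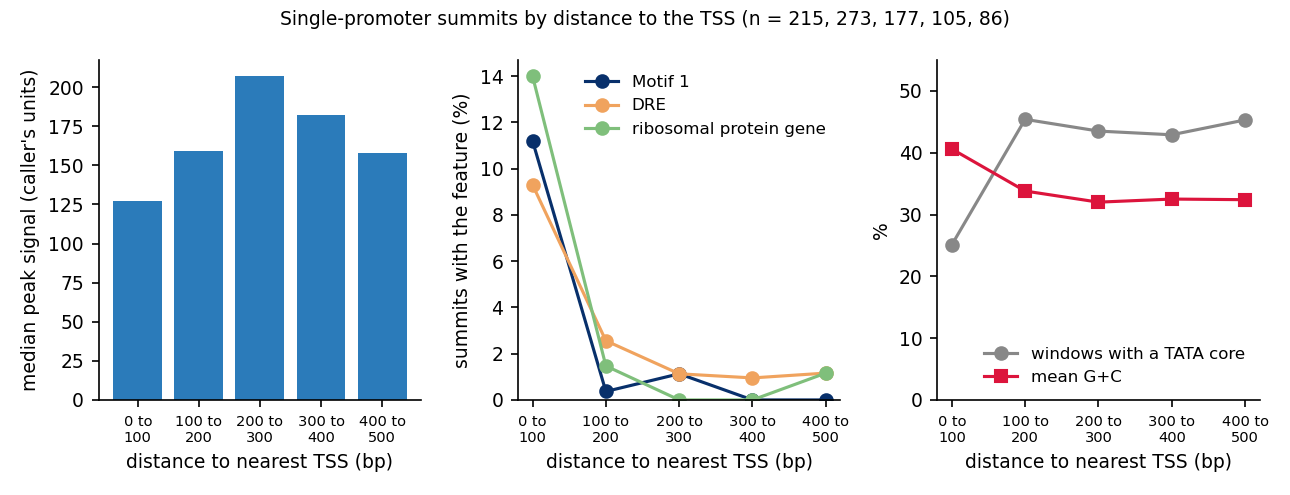
Single-promoter summits in 5 bands of distance to the nearest TSS (x, bp). Left, median signal, highest (207) at 200 to 300 bp; middle, percent of summits with Motif 1, the DRE or a ribosomal protein gene as nearest gene, highest in the band under 100 bp; right, percent with a TATA core and mean G+C percent.

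On average, the stronger members lay in sequence richer in A and T. The 3 strong members printed above are not examples of this. Within 100 bp of the summit their G+C content was 36.3% (CG14100), 38.8% (ph-p) and 33.3% (CG18549), against a mean of 32.2% in the 214 strongest. Mean G+C content was 34.8% over all members (SD 7.97), 32.2% at divergent summits (SD 6.60), 34.1% beyond 2000 bp (SD 6.70) and 39.4% at unbound windows (SD 9.56). A+T content was 67.8% in the 214 strongest members and 62.0% in the 214 weakest. TATAAA was in 39.6% of member windows and 28.0% of unbound ones (1.42-fold), and in 47.2% of the 214 strongest against 33.6% of the 214 weakest (13.6 points, 4.25 to 22.5). The TATAAA sites nearest the summit lay a median 190 bp upstream of the TSS. The 10 hexamers most in excess on arms 2L, 3L and 4 were made of A and T alone, and AAAATA was in 64.6% of members and 43.3% of unbound windows on arms 3R and X. The part of base composition in the motif shares was not tested.

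Sites of the Sp/KLF family itself were less common at members than at unbound windows. GGGCGGG or GGGCGTG was in 12 member windows (1.40%), 0.564% of divergent ones, 1.61% beyond 2000 bp and 2.86% of unbound ones, a 0.490-fold share (0.277 to 0.867). A looser form (2 purines, GG, a pyrimidine, G and a pyrimidine) was in 108 (12.6%), 12.2% of divergent windows, 12.1% beyond 2000 bp and 15.5% of unbound ones, a 0.815-fold share (0.680 to 0.977). GAGAG, a site of GAGA factor, was in 22.8% of members, 11.7% of divergent summits (difference 11.1 points, 7.10 to 14.9) and 22.7% beyond 2000 bp. The share at unbound windows was 27.1%. With unbound windows at the members' own positions it was 24.5%, and the difference of -1.73 points had an interval that spanned 0 (-4.52 to 1.28). The 214 strongest minus the 214 weakest members differed by 4.21 points, with an interval that also spanned 0 (-3.62 to 12.0). GCCAT, the core of sites for the Polycomb recruiter Pho, was in 24.2%, 23.9% at divergent promoters and 30.2% at unbound ones. Of the other strings searched, GTATATTT or GTATTTTT (Motif 6) was in 10.3% of members and 6.54% of unbound windows, and GGCAACG or GGCAGCG (Motif 7) in 3.97% and 6.15%. CAGCTG was in 7.71% and 8.95%, the Zeste site (TGAGTG or CGAGTG) in 14.8% and 17.1%, GTGTGTGT in 3.50% and 4.33%, the core of the CTCF site in 0.935% and 0.693%, and the Zelda site CAGGTA in 3.39% and 4.99%. Intervals for these 15 motifs were not adjusted for their number.

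**Figure D5:**
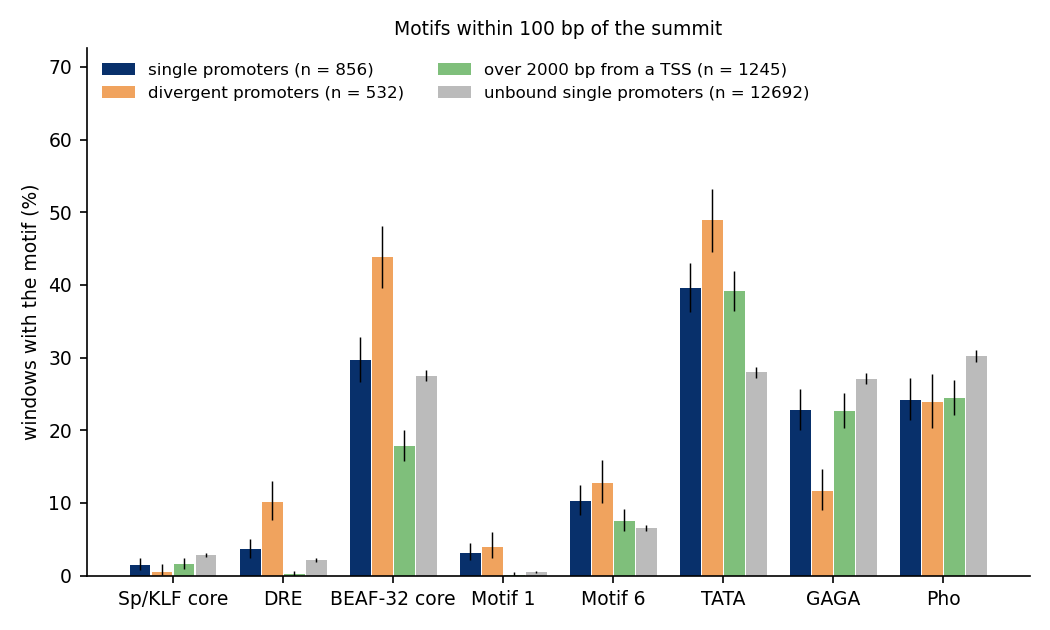
Percent of windows reaching 100 bp to either side of the summit that hold each of 8 motifs (y) at single promoters, divergent promoters, summits over 2000 bp from a TSS, and unbound single promoters, with exact 95% intervals. The DRE and the BEAF-32 core were commonest at divergent promoters (10.2% and 43.8%), and GAGA sites were fewest there (11.7%).

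Several octamers were commoner at single-promoter summits than at unbound promoters. The 10 octamers were chosen by their excess over unbound windows on arms 2L, 3L and 4, and read on arms 3R and X. CACTGTGC, shown at Fhos and Top1, was in 17 of 353 members there (4.82%) and 0.863% of unbound windows, a difference of 3.95 points (2.14 to 6.72) and a 5.58-fold share (3.22 to 9.67). With unbound windows at the members' own positions it was 5.08-fold (2.96 to 8.73). On the same arms, 0.498% of divergent summits and 4.95% of those beyond 2000 bp held it. Over all arms 36 members held it (4.21%), against 1.13% of divergent summits and 4.34% of those beyond 2000 bp. These counts include the arms on which the word was chosen for its excess at members, so they do not test it. Members with it spread over the 4 signal groups (13, 8, 8 and 7, strongest first), and their log2 signal differed from that of the others by 0.22 (-0.09 to 0.53). Fhos, a formin gene, had 307 in replicate 1 and 158 in replicate 2, and Top1, the topoisomerase I gene, had 60.6 and 51.2. The site lay within 50 bp of the summit at 9 of the 36. CACTGAGA and TACACTGA, which can overlap each other, were also above unbound windows on the arms read (2.55% against 0.686%, and 1.98% against 0.745%). On those arms, summits beyond 2000 bp held them more often (6.39% and 6.60%). Over all arms, single promoters minus summits beyond 2000 bp gave -4.63 points (-6.48 to -2.72) and -3.51 points (-5.32 to -1.63). NK7.1, a homeobox gene, had 135 in replicate 1 and 84.4 in replicate 2, and Apoltp, a lipoprotein gene, 92.2 and 47.0. The word GGTCACAC is part of Motif 1 and gave 3.97% against 0.980%, and the other 6 octamers had difference intervals that spanned 0.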

How the data were processed

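Per the labels, anti-GFP chromatin immunoprecipitation was sequenced for 2 biological replicates, with sonicated chromatin of 200 to 800 bp, and peaks are on dm6. Which aligner, caller, filters and IDR threshold were used is not given in the sources used here. Signal is the value the authors deposited for each peak against the control, on a scale that differs between lists. All 3260 reproducible peaks carry the same deposited −log10 q-value, which was not used. The deposited summit offset (another number, in bases from the peak start) gave each summit. The replicate lists stop at 30000 peaks.

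Summits were placed against TSSs of Ensembl release 115 (BDGP 6.54), 13945 protein-coding genes on 6 arms, with sequence from RefSeq release 6. The unbound promoters were single TSSs without a reproducible summit within 1000 bp. Shares have exact (Clopper-Pearson) 95% intervals, differences of shares Newcombe intervals, folds Katz intervals, and log2 differences large-sample intervals. A count of 0 allows 3 counts. No p-value was computed, since peaks and genes are not replicates and there is 1 group. The scripts (Python, SciPy) were tested on simulated data.

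The members, the 21 gene lists and 15 motifs were chosen with earlier results of these data known. One muscle gene, sls, was removed from the trithorax list, where it had been placed in error, after its value was seen. Named genes were the 12 strongest members, the 3 strongest of each list, the strongest outside arm 2R with each printed motif whose window held no exon, the 5 with the largest replicate gap, and those nearest the limits. Moe, Ptpmeg2, Rtnl1, the ribosomal protein genes far from their TSS and RpS10b were named after their values were seen. One gene that these rules name is not reported here. Octamers and the unbound windows at members' own positions were also added after seeing the data.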

Additional observations from a re-analysis of the deposited data

How the results depend on the processing

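A window of 250 bp gave a single-promoter share of 22.4%, a median position of -108 bp, 5.29% of genes, a log2 difference from divergent promoters of -0.0806 and 69.2% in both replicates. With 1000 bp the share was 31.5%, the upstream share 75.4% and genes 6.84%. Divergent pairs of at most 500 bp gave 6.48% of genes, and a limit of 2000 bp changed nothing, since both TSSs must lie within 500 bp. Outermost TSSs alone gave 20.2%, 78.1% upstream, -136 bp and 4.93% of genes, and TSSs of all gene types gave 28.3% and 78.9% upstream. The 1000 strongest peaks gave 29.1%, 91.1% upstream, -197 bp, 2.09% of genes and 100% in both replicates. Leaving out a replicate gave an upstream share of 78.5% to 81.0%. Replicate summits within 100 bp gave 69.7%. In the 1000 strongest peaks the folds of the DRE (0.959) and Motif 1 (0.623) turned below 1, where few members carry them, and against flanks 500 bp further upstream GAGA sites were 1.05-fold and Motif 1 9.00-fold. Motif 1 was 3.33-fold against unbound windows at the members' own positions. The cause of these shifts was not tested. Cytoplasmic ribosomal protein, translation factor, cell cycle, signalling and other patterning lists stayed above all genes in all 10 settings run. These include the main setting and the 2000 bp limit, which equals it. Some margins were small. Cell cycle genes had 5.71% with outermost TSSs alone, against 4.93%, and other patterning regulators 6.15% with the 250 bp window, against 5.29%. The main intervals of these 2 lists included the 5.95% of all genes. No paired analysis was possible because there is 1 group. The share in both replicates has no value when a replicate is left out. Unknown depth limits all counts, and weak members are the least certain.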

Other observations

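Single-promoter summits were spread over the arms much as protein-coding genes are. Arm X held 150 (17.5%) and 15.7% of the genes, and arm 3R held 203 (23.7%) and 24.5% of the genes. Chromosome 4 held 7 members, out of only 12 reproducible peaks there, and their median signal was 112, the lowest of the 6 arms. Arm X had the highest median, 184. Members in 5′ UTRs had a median signal of 131, against 187 in introns and 157 between genes. The 62 members whose nearest TSS lay inside another gene had a median of 189. These differences between arms and annotations were not tested.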
